A study of Mus musculus with 9 samples.

Results

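The genes described here are 9 that are used to recognise cellular senescence and its secretory phenotype: the CDK inhibitor genes Cdkn2a, Cdkn2b, Cdkn2c and Cdkn1b, the secreted factor genes Il6, Plau, Igfbp3 and Igfbp5, and the nuclear lamina gene Lmnb1. They were chosen by name, as senescence genes listed for not being set directly by p53 (although Igfbp3 is also known to respond to p53), from 54532 genes in the deposited count table. All 9 were found, and 7 of them passed the filter on low counts that left 15224 genes for testing. The samples were submandibular glands of WT mice given 10 Gy of radiation, taken 30, 60 or 90 days later with 3 samples per time point. The labels give neither the age, sex nor strain of the mice. They also do not say whether the samples of a time point were separate animals. A p-value therefore judges a difference against the spread between these samples and may not carry over to animals. Every group was irradiated and non-irradiated glands were not analysed here, so the values show differences between times after irradiation and not the response to it, and time after irradiation cannot be told apart from age.

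Senescence is a lasting exit from the cell cycle that cells can enter after DNA damage. Inhibitors of the INK4 family (p16Ink4a from Cdkn2a, p15Ink4b from Cdkn2b, p18Ink4c from Cdkn2c) block the cyclin D kinases, p27Kip1 from Cdkn1b acts mainly on cyclin E-CDK2, and both routes keep the retinoblastoma proteins active. Senescent cells also secrete cytokines such as interleukin-6, proteases such as urokinase (Plau) and IGF binding proteins, and many of them lose lamin B1 (Lmnb1). In salivary gland, senescent cells are known as one of the late consequences of radiation.

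Library totals ran from 16541396 to 17179500 counts at 30 days, from 21722141 to 24880803 at 60 days and from 20410818 to 26065856 at 90 days. A single gene, Mucl2, took from 31.4% (sample 2 at 90 days) to 42.8% (sample 1 at 30 days) of a library. The scaling factors used below were 0.824 to 1.02 at 30 days, 0.892 to 1.10 at 60 days and 0.977 to 1.19 at 90 days. Expression is given as CPM, the usual depth-scaled count, with library sizes scaled by TMM (trimmed mean of M-values), and as mean ± SD over 3 samples. All 8 acinar and all 6 granular duct marker genes listed passed the filter, so the labelled gland's defining cells were represented. Each pair of time points was compared by the two-sided quasi-likelihood test of edgeR with Benjamini-Hochberg adjustment over all 15224 genes and 0.05 as the threshold.

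No gene of the 7 passed the test between any pair of time points. Of all genes tested, 1.56% passed between 30 and 60 days, 0.256% between 60 and 90 days and 3.57% between 30 and 90 days. The median log2 difference of the 7 was 0.34, 0.02 and 0.06 in these pairs, against 0.00, 0.00 and 0.01 over all genes. The test of any difference among the 3 time points also called 0 of the 7, where it called 3.29% of all genes. At an unadjusted p under 0.05, 1 of the 7 differed between 60 and 30 days (Igfbp3; 12.4% of all genes), 1 between 90 and 60 days (Igfbp3 again; 10.8%) and 1 between 90 and 30 days (Igfbp5; 16.8%), and 2 in the test of any difference (16.7%). DESeq2 called Igfbp5 at 90 against 30 days and none of the 7 in the other pairs, and limma-voom called none. Cdkn2a and Il6 were at or near 0 in every library.

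**Figure D1:**
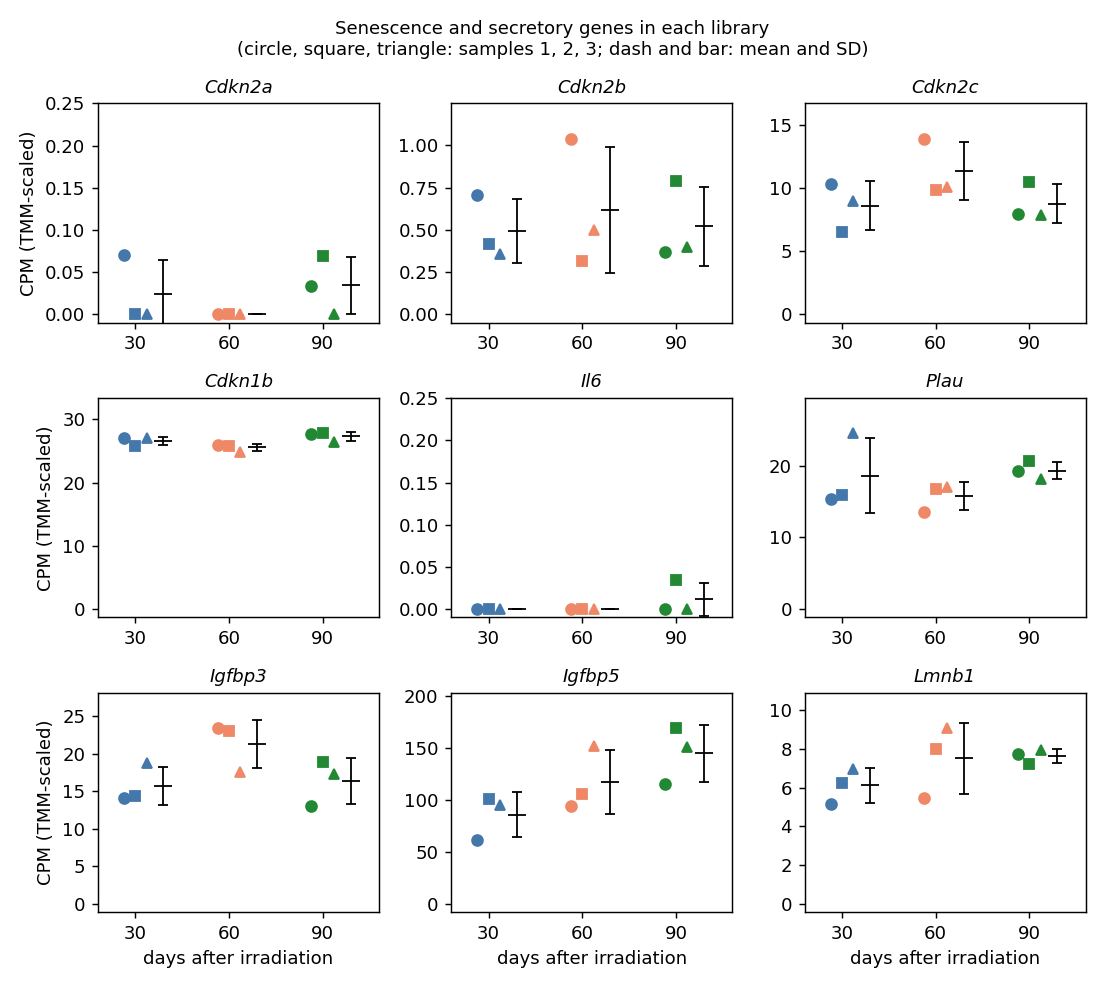
CPM of each of the 9 genes in the 9 libraries against days after irradiation, with the mean and SD of the 3 samples beside them and a separate scale for each gene. Cdkn1b stayed between 24.9 and 27.8 CPM, Igfbp5 ran from 61.1 CPM in a 30-day sample to 169 CPM in a 90-day sample, and Cdkn2a and Il6 lay at or near 0.

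The undetected genes are shown first by the sequence in front of their starts. Cdkn2a has 2 RefSeq starts on the minus strand of chromosome 4: the upstream start opens the transcript of p19Arf, a protein that stabilises p53, and the downstream start opens that of p16Ink4a. The deposited count is per gene and pools both products. Il6 has a single start and Cdkn1b, the steadiest gene of the set after TMM scaling, is printed beside them. The stretches are RefSeq sequence of GRCm38.p6, up to 250 bases before the start, 5′ to 3′, left shorter where GENCODE annotates an exon there. Capitals mark matches, on either strand, to 4 motifs. The TATA box was searched as TATAAA. The GC box, which Sp1 factors bind, was searched as GGGCGG. The AP-1 site was searched as TGANTCA. The NF-kB site was searched as 3 G, any 2 bases, 3 T and 2 C in a row.
Cdkn2a, p19Arf start, chr4:89294654-89294869, minus strand: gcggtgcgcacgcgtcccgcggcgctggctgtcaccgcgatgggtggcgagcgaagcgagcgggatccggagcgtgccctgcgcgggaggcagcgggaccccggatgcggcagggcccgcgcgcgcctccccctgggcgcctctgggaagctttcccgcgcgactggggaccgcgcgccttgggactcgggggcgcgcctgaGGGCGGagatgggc
Cdkn2a, p16Ink4a start, chr4:89282193-89282442, minus strand: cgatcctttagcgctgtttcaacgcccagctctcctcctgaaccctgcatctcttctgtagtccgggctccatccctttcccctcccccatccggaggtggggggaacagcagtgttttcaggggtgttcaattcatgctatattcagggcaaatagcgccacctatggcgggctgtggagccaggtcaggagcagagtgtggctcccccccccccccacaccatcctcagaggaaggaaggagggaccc
Il6, chr5:30012864-30013113, plus strand: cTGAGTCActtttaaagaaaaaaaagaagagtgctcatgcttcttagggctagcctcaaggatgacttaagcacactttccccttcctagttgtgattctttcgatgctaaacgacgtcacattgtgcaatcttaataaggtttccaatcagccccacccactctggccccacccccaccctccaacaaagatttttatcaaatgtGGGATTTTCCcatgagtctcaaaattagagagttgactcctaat
Cdkn1b, chr6:134920151-134920400, plus strand: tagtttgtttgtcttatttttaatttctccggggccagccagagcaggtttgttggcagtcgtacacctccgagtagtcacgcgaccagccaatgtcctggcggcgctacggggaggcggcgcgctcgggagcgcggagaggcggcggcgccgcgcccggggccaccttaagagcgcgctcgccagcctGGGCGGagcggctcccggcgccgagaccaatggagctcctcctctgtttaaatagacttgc

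The Il6 window holds 1 AP-1 match and 1 NF-kB match, which 6.75% and 1.41% of the 32851 RefSeq windows of that length hold. It has 3 CpG dinucleotides and a GC content of 42.8%, against medians of 6 and 52.4% over all windows. The 250 bases before the p19Arf start hold 40 CpG and 2 GC boxes, of which 1 lies in the printed stretch, and those before the p16Ink4a start hold 7 CpG and 0 GC boxes. The Cdkn1b window has 28 CpG and 1 GC box, a motif found in 32.7% of all windows. TATAAA, found in 12.4% of windows, was in none of the 9 windows that the table holds for 7 of the 9 genes. These are matches of letters and show no binding.

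Cdkn2a (ENSMUSG00000044303, chromosome 4, 89274471 to 89294653 in GRCm38) gave 4 counts in the 9 libraries together. Of the 30-day samples, sample 1 had 1 count, and samples 2 and 3 had 0. All 3 samples had 0 at 60 days. At 90 days samples 1, 2 and 3 had 1, 2 and 0 counts. Each library was thus under the floor of 3 counts, which corresponds to 0.101 to 0.213 CPM depending on the library, and no fold change is given. The floor covers counting error only, and in bulk RNA fewer cells of a type and less RNA per cell cannot be told apart.

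Il6 (ENSMUSG00000025746, chromosome 5, 30013114 to 30019981) gave a single count, in sample 2 at 90 days, and 0 in the other 8 libraries. Interleukin-6 is the cytokine most used to mark the secretory phenotype. Its receptor and signalling genes were measurable: 7 of 9 listed genes of the IL-6 family and its pathway were tested, 0 passed in any contrast, and their median log2 fold change from 30 to 90 days was 0.07, against 0.01 over all genes. The shared receptor subunit gene Il6st averaged 75.0, 81.5 and 80.2 CPM at 30, 60 and 90 days. Socs3, the feedback inhibitor that this pathway induces, had a 90-day to 30-day log2 ratio of 0.66 ± 0.29 (SE), which did not pass (adjusted p = 0.257).

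Cdkn2b (ENSMUSG00000073802, chromosome 4, 89306299 to 89311039) lies 11645 bases from Cdkn2a and, unlike it, had counts in every library, between 6 and 24. It measured 0.708, 0.416 and 0.355 CPM in the 30-day samples 1, 2 and 3. The 60-day samples had 1.04, 0.316 and 0.500 CPM, and the 90-day samples 0.370, 0.790 and 0.401 CPM. The highest and the lowest of the 9 values were both at 60 days, and the time points overlapped throughout. At this depth the 95% interval of the log2 fold change from 30 to 90 days ran from -1.16 to 1.38. It spans changes by a factor of 2 in both directions, so such a change is not excluded.

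Cdkn2c (ENSMUSG00000028551, chromosome 4, 109660876 to 109667189) was the most abundant INK4 gene per length. It measured 10.3, 6.47 and 8.99 CPM in the 30-day samples, 13.9, 9.81 and 10.1 CPM in the 60-day samples and 7.91, 10.5 and 7.82 CPM in the 90-day samples. The 60-day mean was the highest, at 11.3 ± 2.29 CPM (SD, n = 3), but the values of all time points overlapped. On the log2 scale the 60-day level exceeded the 30-day level by 0.40 ± 0.20 (SE; adjusted p = 0.415), and the step from 60 to 90 days was -0.36 ± 0.19 (adjusted p = 0.510), so neither passed. Between 30 and 90 days it was 0.04, with a 95% interval from -0.38 to 0.45.

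Cdkn1b (ENSMUSG00000003031, chromosome 6, 134920401 to 134925513) was nearly constant after TMM scaling. Its product p27Kip1 holds resting cells out of the cycle and is controlled largely through its protein stability. It measured 27, 25.8 and 27 CPM at 30 days, 26.0, 25.8 and 24.9 CPM at 60 days and 27.7, 27.8 and 26.5 CPM at 90 days. The coefficient of variation over the 9 libraries was 3.62%, below the 4.29% that counting alone gives on average at these counts. Only 0.125% of the 9568 genes with a mean of at least 5 CPM varied less, and their median was 12.7%. The 95% interval of the log2 fold change from 30 to 90 days ran from -0.17 to 0.25. The 90-day samples all lay above the 60-day samples, with a log2 ratio of 0.10 ± 0.10 (SE), which did not pass (adjusted p = 0.791).

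**Figure D2:**
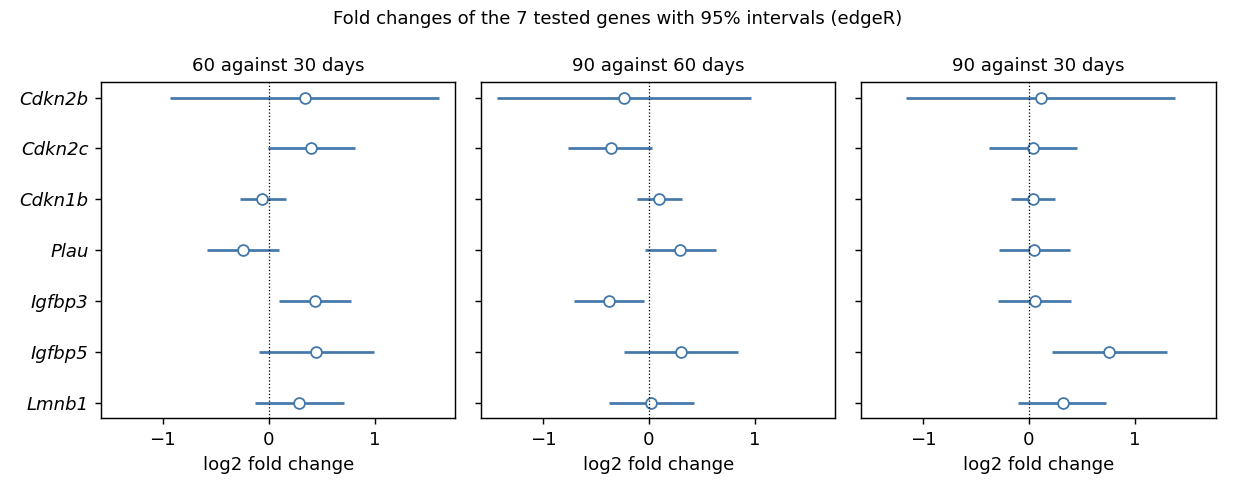
Log2 fold changes of the 7 tested genes in the 3 pairwise comparisons from edgeR, with lines for the 95% intervals before adjustment for the number of genes. The interval of Igfbp5 at 90 against 30 days ran from 0.22 to 1.30, that of Cdkn1b from -0.17 to 0.25, and that of Cdkn2b was the widest of the 7.

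The other CDK inhibitor genes put these levels in order. Per kilobase of exon, Cdkn1b averaged 5.82 ± 0.211 CPM (SD over 9 libraries), Cdkn1a 4.85 ± 1.80, Cdkn2c 3.55 ± 0.795, Cdkn2d 2.67 ± 0.494, Cdkn1c 1.07 ± 0.175 and Cdkn2b 0.391 ± 0.177. The ranges of Cdkn1b, Cdkn1a and Cdkn2c each overlapped with that of the next gene, while Cdkn1c lay below Cdkn2d and Cdkn2b below Cdkn1c in all 9 libraries without overlap. Of the 3 inhibitor genes outside the set, 1 passed a test: Cdkn1a, the p53-driven inhibitor p21, fell by 1.04 (SE 0.23) on the log2 scale from 30 to 60 days (adjusted p = 0.0412). That call was lost in 7 of the 9 fits that left out a single library, all but those without sample 1 or sample 2 at 90 days (adjusted p up to 0.218, without sample 2 at 60 days), with library-size scaling alone (0.0884) and with limma-voom (0.0837). Cdkn1a had means of 23.2, 11.3 and 17.2 CPM at 30, 60 and 90 days, and sample 2 at 90 days, with 24.8 CPM, was back in the range of the 30-day samples. The test of any difference among the 3 time points called 0 of these 3 inhibitor genes, Cdkn1a included.

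The cyclins, kinases and retinoblastoma family genes on which these inhibitors act were compared next. All 14 listed were tested, and their median log2 fold change from 30 to 90 days was -0.02. Only Ccnd3, a D-type cyclin, passed, with a rise of 0.40 ± 0.10 (SE; adjusted p = 0.0300) from 30 to 90 days. It measured 35.3 to 37.6 CPM in the 30-day samples and 44.9 to 49.1 CPM in the 90-day samples, without overlap. The call was lost in 7 of 9 fits that left out a library, all but those without sample 1 or sample 3 at 60 days, with an adjusted p up to 0.152. In the test of any difference among the 3 time points 0 of the 14 passed. Of 13 regulators of INK4 and p27 genes, among them the Polycomb genes Bmi1 and Ezh2 that silence Cdkn2a, 0 passed in any contrast, with a median of 0.03 from 30 to 90 days. Id1, which restrains Cdkn2a through Ets factors, had the largest difference among them, 1.30 ± 0.40 (SE; adjusted p = 0.0884). The 13 proliferation genes also gave 0 calls in each contrast. Their summed level was 67.9 to 144 CPM at 30 days, 92.2 to 213 at 60 days and 86.9 to 131 at 90 days, overlapping at all times.

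Among the secreted factors, Igfbp5 showed the largest difference. Igfbp5 (ENSMUSG00000026185, chromosome 1, 72857932 to 72874884) encodes a matrix-bound IGF binding protein that fibroblasts and other mesenchymal cells secrete. It measured 61.1, 101 and 94.8 CPM in the 30-day samples, 93.9, 106 and 152 CPM in the 60-day samples and 115, 169 and 151 CPM in the 90-day samples. All 90-day samples lay above all 30-day samples, while the 60-day samples overlapped with both. Such a lack of overlap between 90 and 30 days was found in 2 of the 7 genes, Igfbp5 and Lmnb1, and in 23.2% of all genes tested. The means were 85.8 ± 21.6, 117 ± 30.7 and 145 ± 27.4 CPM (SD, n = 3 each).

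Between 30 and 90 days the Igfbp5 level differed 1.69-fold, or by 0.76 ± 0.24 on the log2 scale (SE; 95% interval 0.22 to 1.30), and did not pass the edgeR test (adjusted p = 0.142). The call depended on the method. With DESeq2 the log2 fold change was 0.75 and the adjusted p 0.00481, and with edgeR and no filter on low counts the adjusted p was 0.000441. With limma-voom it was 0.152. The estimate stayed between 0.56, without sample 1 at 30 days, and 0.89 when single libraries were left out, and none of these 9 fits passed (adjusted p 0.0638 to 0.380).

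Marker genes of other cells were read beside this difference. All 6 myoepithelial and smooth muscle markers had positive fold changes from 30 to 90 days (median 0.39) and 0 of the 6 passed. Their summed level was 315 to 439 CPM at 30 days, 467 to 517 at 60 days and 431 to 595 at 90 days. The 6 fibroblast markers, of which 0 passed, summed to 342 to 548, 331 to 484 and 422 to 492 CPM. No marker of either list was at 0. Sample 1 at 30 days was the lowest of the 9 libraries for Igfbp5 and for the summed myoepithelial markers. The highest for both was sample 2 at 90 days, with 169 CPM of Igfbp5 and 595 CPM of these markers. The match was not particular to these markers. Sample 1 at 30 days was also the lowest, and sample 2 at 90 days the highest, for the summed macrophage markers (104 and 230 CPM). The same held for the scaling factor (0.824 and 1.19), and the reverse for the share of Mucl2 (42.8% and 31.4%). The granular duct markers differed more: 5 of 6 passed with a rise from 30 to 90 days, with a median of 1.95 over the 6. They summed to 20500 to 28000 CPM at 30 days and 34000 to 46000 CPM at 90 days. Of 8 acinar markers, Amy1 passed with a rise and Aqp5 with a fall over the same interval. By sign alone 3 of them were higher and 5 lower, with a median of -0.36. They summed to 456000 to 645000 CPM at 30 days, 364000 to 532000 at 60 days and 310000 to 457000 at 90 days, mostly from Mucl2. Of 8 duct and basal markers Trp63 passed with a rise from 30 to 90 days. The part of all these cells in the Igfbp5 difference, or in the other rises from 30 to 90 days given below, was not tested.

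Igfbp3 (ENSMUSG00000020427, chromosome 11, 7206086 to 7213923) encodes the main carrier of IGF in blood and a growth-restraining factor of the secretory phenotype. It measured 14.1, 14.4 and 18.7 CPM at 30 days, 23.4, 23.0 and 17.6 CPM at 60 days and 13.0, 18.9 and 17.3 CPM at 90 days. Samples 1 and 2 at 60 days were above all others, and sample 3 at 60 days fell within the range of the rest. In log2 units the step from 30 to 60 days was 0.44 ± 0.16 (SE; adjusted p = 0.250) and that from 60 to 90 days -0.38 ± 0.16 (adjusted p = 0.400), and neither passed. The 30-day and 90-day means, 15.7 ± 2.56 and 16.4 ± 3.08 CPM (SD, n = 3 each), differed by 0.06 on the log2 scale, with a 95% interval from -0.29 to 0.40. Both steps share the 60-day samples and are not separate observations.

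Igfbp3 had the smallest p for any difference of the 7 genes (unadjusted p = 0.0259 by edgeR; adjusted p = 0.223), and the genes most like it in pattern were therefore looked up. Likeness was the root mean square difference between log2 CPM profiles, each centred on its mean over the 9 libraries, among genes averaging at least 1 CPM. The nearest were Chst9 at 0.118, Tomm5 at 0.129 and Bloc1s4 at 0.134. The size of the Igfbp3 profile itself was 0.280 on this measure, and the median distance over all genes was 0.350.

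The remaining IGF binding protein genes divided by level and by change. Per kilobase of exon, Igfbp7 was the highest at 36.7 ± 7.71 CPM (SD over 9 libraries), followed by Igfbp5 at 19.3 ± 5.76, Igfbp2 at 14.2 ± 5.11, Igfbp4 at 11.2 ± 1.90, Igfbp3 at 5.69 ± 1.18 and Igfbp6 at 3.24 ± 1.23. Igfbp1 had 0 counts in all libraries. Igfbp7 lay above Igfbp5 in all 9 libraries without overlap of their ranges, as did Igfbp4 above Igfbp3. Igfbp5 and Igfbp2 had overlapping ranges, although Igfbp5 was the higher in each of the 9 libraries, and Igfbp2 and Igfbp4 overlapped.

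**Figure D3:**
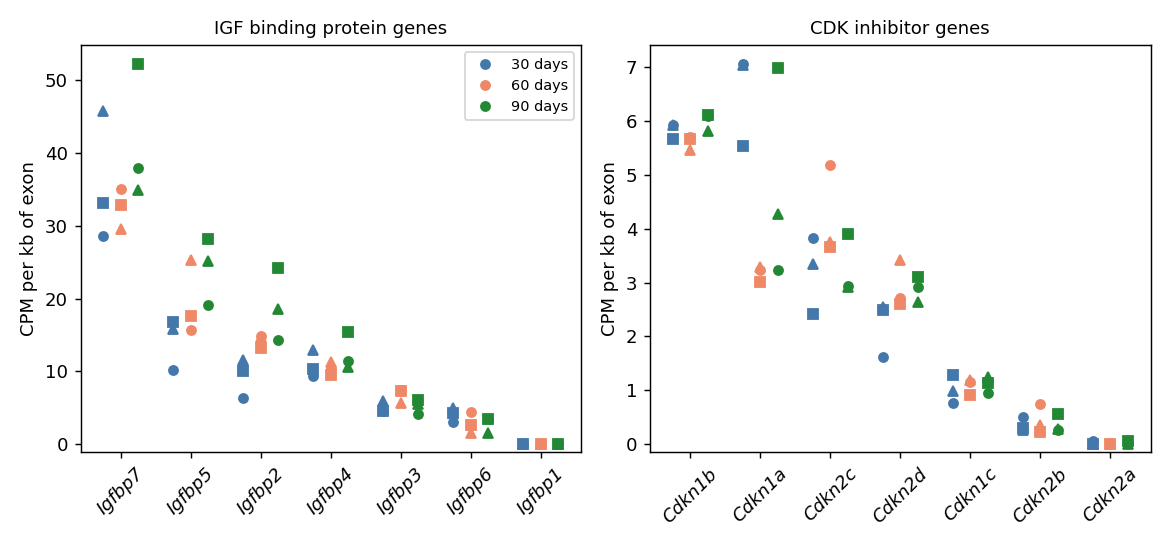
CPM per kilobase of exon in each library for the IGF binding protein genes (left) and the CDK inhibitor genes (right), coloured by days after irradiation, with circles, squares and triangles for samples 1, 2 and 3. Igfbp2 runs from 6.29 in a 30-day sample to 24.3 in a 90-day sample, Igfbp1 is at 0, and Cdkn1b keeps to 5.48 to 6.10.

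Of 10 tested genes of the IGF axis outside the set, 2 passed with a rise and 0 with a fall from 30 to 90 days. By sign alone 7 were higher and 3 lower, with a median log2 fold change of 0.21, and 0 passed in the other pairs. Igfbp2, another IGF binding protein, measured 11.6, 18.5 and 21.4 CPM at 30 days, 27.4, 24.5 and 27.1 CPM at 60 days and 26.4, 44.8 and 34.4 CPM at 90 days. All 90-day samples exceeded all 30-day samples, a rise of 1.03 ± 0.22 on the log2 scale (SE; adjusted p = 0.0249). Igfals encodes the acid-labile subunit, which joins IGF and IGFBP3 or IGFBP5 in a large complex of the blood. It rose by 1.01 ± 0.21 (SE; adjusted p = 0.0122), from 4.18 to 5.94 CPM over the 30-day samples to 7.58 to 13.7 CPM over the 90-day samples. The Igfals call was lost without sample 1 at 30 days or samples 2 or 3 at 90 days (adjusted p up to 0.0798). That of Igfbp2 was lost without sample 2 at 30 days, 1 or 3 at 60 days, or 2 or 3 at 90 days, and with the 6 libraries alone (adjusted p = 0.110, the highest over its alternatives). Igf1 itself averaged 4.07, 3.95 and 4.53 CPM.

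Plau (ENSMUSG00000021822, chromosome 14, 20836660 to 20843385) encodes urokinase, the protease that turns plasminogen into plasmin at the cell surface. It measured 15.3, 15.9 and 24.5 CPM at 30 days, 13.5, 16.7 and 17.0 CPM at 60 days and 19.2, 20.6 and 18.1 CPM at 90 days. The highest value was that of sample 3 at 30 days, and the 90-day samples all lay above the 60-day samples. Such a separation of 90 from 60 days was found in 2 of the 7 genes, Plau and Cdkn1b, and in 15.9% of all genes, and between 60 and 30 days in 0 of the 7 and 16.9% of all genes. Plau differed between 60 and 90 days by 0.29 ± 0.16 (SE) in log2 units, which did not pass (adjusted p = 0.534), and between 30 and 90 days by 0.05, with a 95% interval from -0.28 to 0.39.

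Genes that act with urokinase were compared as a list. Of 7 listed genes of plasminogen activation, 4 were tested and 0 passed in any contrast, and plasminogen itself, Plg, had 0 counts. The receptor gene Plaur averaged 0.833, 0.821 and 0.717 CPM at 30, 60 and 90 days. The other activator, Plat, differed between 30 and 90 days by 0.65 ± 0.27 (SE) on the log2 scale, which did not pass (adjusted p = 0.216).

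Other factors of the secretory phenotype were listed as a group of 20 genes, of which 15 were tested. From 30 to 90 days 13 of the 15 had positive fold changes with a median of 0.62, against 0.01 over all genes, but only 1 passed. From 60 to 90 days the median was 0.56 with 0 passing, and from 30 to 60 days 0.28 with 0 passing. In some of the 15 genes a single library stood apart from the others of its time point. Sample 2 at 90 days had 3.12 CPM of Cxcl1 and 3.91 CPM of Hgf. The other 90-day samples had 0.842 and 0.802 CPM of Cxcl1 and 1.75 and 2.16 CPM of Hgf. Hgf was also at 3.50 CPM in sample 3 at 60 days. Sample 1 at 30 days had 1.91 CPM of Mmp3, against 7.31 and 7.04 CPM in the other 30-day samples. The gene that passed was Vegfa, the vascular growth factor, with a rise of 0.56 ± 0.12 (SE; adjusted p = 0.0105) from 92.9 to 105 CPM over the 30-day samples to 137 to 158 CPM over the 90-day samples. Its call was lost without samples 1 or 2 at 30 days or sample 3 at 90 days (adjusted p up to 0.0678). The inflammatory cytokine genes were low: Il1a averaged 0.682, 0.350 and 0.551 CPM and Tnf 0.280, 0.587 and 0.485 CPM at 30, 60 and 90 days. Il1b had 2 to 9 counts in the 30-day samples and 29 to 30 in the 90-day samples, or 0.118 to 0.638 against 1.01 to 1.45 CPM without overlap. Its log2 ratio of 1.66 ± 0.56 (SE) between these times did not pass (adjusted p = 0.112).

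The monocyte chemokine gene Ccl8 had the largest value of the list from 30 to 90 days, 2.22 ± 0.63 (SE; adjusted p = 0.0857). It measured 0.142, 1.13 and 1.30 CPM at 30 days, 0.820, 0.768 and 1.38 CPM at 60 days and 1.78, 7.45 and 3.06 CPM at 90 days. Sample 2 at 90 days stood out in it and in the lymphocyte markers, and was also the highest library for Igfbp5 and Igfbp2. The 6 B and plasma cell markers summed to 249 CPM there, against 22.7 and 33.4 CPM in the other 90-day samples, 12.3 to 18.7 CPM at 30 days and 10.4 to 14.8 CPM at 60 days. The 6 T cell markers summed to 11.1 CPM there, 3.43 to 5.37 CPM in the other 90-day samples, 1.70 to 2.67 CPM at 30 days and 1.42 to 2.63 CPM at 60 days. Of these, 3 B and plasma cell and 4 T cell markers could be tested and 0 passed between any pair, although all 4 tested T cell markers had positive fold changes from 30 to 90 days (median 1.78). In the test of any difference among the 3 time points 1 of them passed, Cd3e (adjusted p = 0.0432). No listed marker of either type was at 0 in all libraries. The 6 macrophage markers, of which 0 passed in any contrast, summed to 230 CPM in sample 2 at 90 days. They summed to 137 and 152 CPM in the other 90-day samples, 104 to 196 CPM at 30 days and 134 to 144 CPM at 60 days. The part of lymphocytes or macrophages in the Ccl8 values was not tested.

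**Figure D4:**
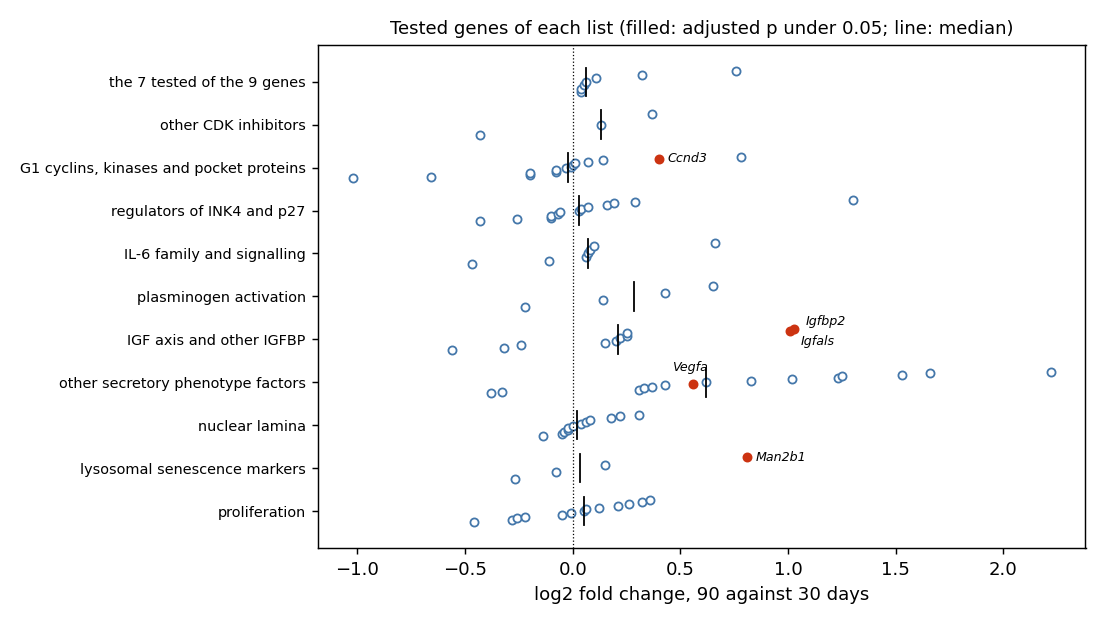
Log2 fold change from 30 to 90 days of each tested gene, by list, with filled points for an adjusted p under 0.05 and a line at the median of each list. The genes that passed are Ccnd3, Igfbp2, Igfals, Vegfa and Man2b1, and the points of the 7 tested genes of the set run from 0.04 to 0.76 with none filled.

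Lmnb1 (ENSMUSG00000024590, chromosome 18, 56707813 to 56753424), whose loss marks senescent cells, showed no fall that passed the test, and its mean was lowest at 30 days. It measured 5.17, 6.24 and 6.98 CPM in the 30-day samples, 5.48, 8 and 9.09 CPM in the 60-day samples and 7.74, 7.24 and 7.97 CPM in the 90-day samples. The 90-day samples lay above the 30-day samples, and the 60-day samples spanned nearly the whole range. Lmnb1 differed between 30 and 90 days by 0.32 ± 0.20 (SE) on the log2 scale, with a 95% interval from -0.10 to 0.73, and did not pass (adjusted p = 0.461). The lowest library for Lmnb1, sample 1 at 30 days, was also the lowest for the summed proliferation genes, as sample 3 at 60 days was the highest for both. The part of proliferation in the Lmnb1 values was not tested.

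The other lamina and chromatin genes were compared as a list. All 12 were tested, 0 passed in any contrast, and their fold changes from 30 to 90 days lay between -0.14 and 0.31 with a median of 0.02. The A-type lamin gene Lmna averaged 62.0, 60.6 and 60.1 CPM at 30, 60 and 90 days, and Lmnb2 9.01, 8.68 and 10.2 CPM. Hmgb2, a chromatin protein that senescent cells lose, had a 90-day to 30-day log2 ratio of 0.31 ± 0.16 (SE; adjusted p = 0.334).

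Lysosomal genes are followed in senescence because Glb1 encodes the enzyme behind senescence-associated beta-galactosidase staining. Glb1 averaged 12.4, 12.2 and 10.3 CPM at 30, 60 and 90 days, and the log2 difference between 30 and 90 days was -0.27 ± 0.16 (SE; adjusted p = 0.420). It measured 12.3 to 12.5 CPM in the 30-day samples and 9.78 to 11.1 CPM in the 90-day samples. These did not overlap, as in 23.2% of all genes tested. Of the 4 lysosomal genes listed, only Man2b1, the lysosomal alpha-mannosidase, passed. It measured 139, 150 and 175 CPM at 30 days, 203, 231 and 267 CPM at 60 days and 264, 270 and 279 CPM at 90 days. The 30-day samples lay below all others. Man2b1 rose by 0.60 ± 0.12 (SE; adjusted p = 0.0131) from 30 to 60 days and by 0.81 ± 0.12 (SE; adjusted p = 0.000770) from 30 to 90 days, comparisons that share the 30-day samples. The second call held in all 17 alternatives run, and the first was lost in 4 of them, those with library-size scaling alone (adjusted p = 0.0852) or without sample 1 or 2 at 30 days or sample 2 at 60 days.

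Within the set, levels per length spanned a wide range. Per kilobase of exon, Igfbp5 averaged 19.3 CPM, Plau 7.55 ± 1.38, Cdkn1b 5.82, Igfbp3 5.69, Cdkn2c 3.55, Lmnb1 2.40 ± 0.432, Cdkn2b 0.391, Cdkn2a 0.0164 and Il6 0.00157 CPM. Plau, Cdkn1b and Igfbp3 had overlapping ranges, and Cdkn1b exceeded Igfbp3 in 5 of 9 libraries. Lmnb1 lay above Cdkn2b, and Cdkn2b above Cdkn2a, in all 9 libraries without overlap. Igfbp5 varied most after Cdkn2b, with a coefficient of variation of 29.8% over the 9 libraries where counting alone gives 2.20%, and 96.3% of the 9568 genes varied less. Cdkn2c (22.4%), Igfbp3 (20.7%), Plau (18.3%) and Lmnb1 (18.0%) also varied beyond counting, which alone gives 5.30% to 8.51% for them. Cdkn2b varied by 45.3%, with 32.3% from counting.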

How the data were processed

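The authors deposited raw read counts for 54532 Ensembl genes. Per the submitters' processing notes, fastp, STAR, featureCounts and mm10 were used; versions, annotation and strand setting are not given in the sources used here. Per the labels' protocols, RNA came from tissue sections of the gland and libraries from a SMARTER kit. Columns were matched to samples by day and sample number, and 3 columns that match no listed sample were not used. Symbols, positions and exon lengths came from GENCODE M21 (GRCm38), and no other gene's exons overlap those of the 9 genes.

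Genes were filtered with filterByExpr (minimum count 10) in edgeR 4.0.16. The 9 libraries were fitted together by time point with TMM factors and robust quasi-likelihood dispersion (common biological coefficient of variation 0.15). Standard errors are the fold change over the square root of F. Fits were tested on simulated data. Alternatives used limma 3.58.1 and DESeq2 1.42.0 under R 4.3.3. Figures were drawn with matplotlib 3.10.9. Floors and counting errors cover counting only.

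The 9 genes and the lists were chosen with earlier results of these data known. All 9 genes are named, with list genes that passed in a pair of time points (up to 4 per list; otherwise up to 2 with large changes). Further list genes named for their role were chosen after their values were seen.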

Additional observations from a re-analysis of the deposited data

How the results depend on the processing

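Of 17 alternatives, 353 fold changes of the 7 genes were recomputed: 3 had an adjusted p under 0.05, all of Igfbp5 at 90 against 30 days (DESeq2, no filter on low counts and the replicate block), and 15 changed sign. The sign changes came only from leaving out single libraries: Cdkn2b ranged from -0.25 to 0.68 for 60 against 30 days, -0.68 to 0.35 for 90 against 60 and -0.34 to 0.44 for 90 against 30, Cdkn2c from -0.14 to 0.18, Igfbp3 from -0.07 to 0.20 and Plau from -0.07 to 0.30 for 90 against 30, Plau from -0.36 to 0.02 for 60 against 30, and Lmnb1 from -0.16 to 0.18 for 90 against 60.

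The number of the 7 genes called at 90 against 30 days was 0, and 1 with DESeq2, with no filter and with the block. For any difference it was 0, and 1 with DESeq2 (Igfbp5), 2 with no filter (Igfbp5 and Igfbp3, adjusted p = 0.00144 and 0.0435) and 1 with the block. The cause was not tested. Equal sample numbers are not said to be matched samples, and only 1 of 9 same-numbered pairs had deviations correlated over 0.1. With the block, Igfbp5 had an adjusted p of 0.00107.

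Over all genes, the counts for 60 against 30 days, 90 against 60 days, 90 against 30 days and any difference were 238, 39, 544 and 501. With DESeq2 they were 363, 135, 845 and 841, and with no filter 459, 354, 1045 and 1194. Library-size scaling alone gave 90 for 60 against 30 days and 277 for any difference, and moved the median over all genes, on the log2 scale, from 0.01 to 0.24 at 90 against 30 days and from 0.00 to 0.17 at 90 against 60. It changed the split into higher and lower genes from 173 and 65 to 79 and 11 (60 against 30 days), from 275 and 269 to 406 and 34 (90 against 30) and from 14 and 25 to 19 and 9 (90 against 60); with no filter the last was 195 and 159. The block gave 92 for 90 against 60 days. Leaving out single libraries gave 73 to 244, 16 to 103, 184 to 703 and 220 to 683. At 23 counts over the 30-day libraries, depth limits Cdkn2b most among the 7 genes. With at least 10 counts required in every library, and with the 6 libraries alone at 90 against 30 days, Cdkn2b was filtered out and gave no value; the test of any difference has no such 6-library fit.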
